A study of Mus musculus with 6 samples.

Results

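Oxidative phosphorylation subunits were taken from the deposited expression table by symbol. Every gene beginning with *Nduf*, *Uqcr*, *Cox4*, *Cox5*, *Cox6*, *Cox7*, *Cox8* or *Atp5* was included, together with *Sdha*, *Sdhb*, *Sdhc*, *Sdhd* and *Cyc1*. This gave 94 genes of the 21367 in the table. By complex they were 36 subunits of complex I, 8 complex I assembly factors (*Ndufaf1* to *Ndufaf8*), 4 subunits of complex II, 9 of complex III, 20 of complex IV with its isoforms and 15 of complex V. The symbols *Atp5s* and *Atp5sl* also met the rule and were kept apart, as proteins that are not subunits of the enzyme itself. *Ndufa4* and *Ndufa4l2* were counted with complex IV, where the *Ndufa4* protein is now placed. The 13 subunits encoded by the mitochondrial genome were not analysed here.

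The samples were left kidneys of 3 *Ptpn6*+/mev mice and 3 wild-type mice, with 1 poly-A mRNA library per mouse. *Ptpn6* encodes the protein tyrosine phosphatase SHP-1, and mev (viable motheaten) is a splice-site allele that lowers its activity in all cells that express it. The mutant mice carried 1 copy of the allele on a C57BL/6 background and the labels call the genotype an SHP1 knockdown. All 6 mice were 7 weeks old, had lost the right kidney and had the left renal pedicle clamped for 34 min, followed by 24 h of reperfusion, so every kidney had ischemia reperfusion injury (IRI) and no uninjured kidney was compared here.

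Oxidative phosphorylation passes electrons from NADH (complex I) and succinate (complex II) through complexes III and IV to oxygen, pumps protons across the inner mitochondrial membrane, and uses their return through complex V, the ATP synthase, to make ATP. Most subunits are encoded in the nucleus and are imported into mitochondria. In the kidney the proximal tubule is rich in mitochondria and depends on this pathway for reabsorption, and loss of mitochondrial function is a known feature of ischemic tubular injury. Nuclear subunit genes are often transcribed together, through factors such as NRF1, YY1, GABPA (an ETS factor) and the estrogen-related receptors.

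Binding motifs of these factors were searched in promoters from RefSeq (GRCm38.p6), from 250 bases before to 50 bases after the start of each gene. Of the 94 genes, 74 were matched by symbol. The letters GCGCANGCG (NRF1, N for any base) were found in 22 of the 74 (29.7%), against 7.03% of the 27025 genes with a promoter in the table. AAGATGGC (YY1) was found in 10 (13.5%, against 3.19%), CCGGAAG (ETS) in 18 (24.3%, against 9.93%) and CAAGGTCA (estrogen-related receptor) in 4 (5.41%, against 1.76%). Both strands were read, a gene could hold several motifs, and 41 of the 74 genes held at least 1. The promoters of 4 genes are shown for members whose values are given below, and capitals mark the motifs. *Sdha* (chr13:74350191-74350490, minus strand) held NRF1 letters starting 98, 55 and 10 bases before the gene start, *Cox6a1* (chr5:115348909-115349208, minus strand) held NRF1 letters 162 bases before it (read on both strands, overlapping from 161) and 117 bases before it and the ETS letters, on the other strand, 16 bases before it, and *Ndufs7* (chr10:80249199-80249498, plus strand) held the YY1 letters 24 bases after it. Gene starts here are those of RefSeq, and the *Ndufs7* gene of GENCODE M21 begins further upstream, so that its window lies inside that gene model. *Cox6b2* (chr7:4753045-4753344, minus strand) held none of the 4 motifs in this window.
Sdha: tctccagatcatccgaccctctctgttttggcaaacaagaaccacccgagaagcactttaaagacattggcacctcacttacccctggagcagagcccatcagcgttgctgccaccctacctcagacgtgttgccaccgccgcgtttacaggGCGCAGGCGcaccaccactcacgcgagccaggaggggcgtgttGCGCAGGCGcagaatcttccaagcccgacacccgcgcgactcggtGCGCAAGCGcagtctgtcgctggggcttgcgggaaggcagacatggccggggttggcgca
Cox6a1: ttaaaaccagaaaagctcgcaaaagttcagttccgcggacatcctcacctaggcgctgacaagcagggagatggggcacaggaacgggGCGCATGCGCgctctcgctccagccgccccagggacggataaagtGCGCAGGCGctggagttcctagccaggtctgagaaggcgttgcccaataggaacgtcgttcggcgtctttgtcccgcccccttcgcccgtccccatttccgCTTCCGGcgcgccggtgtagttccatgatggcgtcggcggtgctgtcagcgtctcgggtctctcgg
Ndufs7: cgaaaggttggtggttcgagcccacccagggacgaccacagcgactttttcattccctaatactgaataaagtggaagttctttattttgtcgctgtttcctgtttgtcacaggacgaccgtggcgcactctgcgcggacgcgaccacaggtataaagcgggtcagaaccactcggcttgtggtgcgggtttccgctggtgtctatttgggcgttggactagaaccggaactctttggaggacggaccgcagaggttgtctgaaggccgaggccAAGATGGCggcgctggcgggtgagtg
Cox6b2: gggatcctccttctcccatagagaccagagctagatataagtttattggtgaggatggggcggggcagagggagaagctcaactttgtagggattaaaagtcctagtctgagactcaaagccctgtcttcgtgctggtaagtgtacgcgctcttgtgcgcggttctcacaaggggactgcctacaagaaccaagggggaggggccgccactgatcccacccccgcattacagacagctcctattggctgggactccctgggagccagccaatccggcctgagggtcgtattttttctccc

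Total counts per library ranged from 10271590 to 12361745. *Ptpn6* itself had FPKM values (fragment numbers adjusted for transcript length and library size) of 11.9, 14.7 and 13.6 in the *Ptpn6*+/mev kidneys and 17.5, 10.9 and 15.4 in the wild-type kidneys, so the groups overlapped, and its log2 fold change was -0.19 (FDR = 0.715). A splice-site allele need not lower the amount of mRNA, so this level does not test the genotype. The kidney was recognised by *Umod*, a thick ascending limb gene, and *Slc34a1*, a proximal tubule phosphate transporter, and its injury by *Havcr1*. These were present in every library. Wild-type replicate 2 stood apart in the markers of other cell types. It had a summed FPKM of 48.0 for 5 endothelial markers and 52.6 for 6 fibroblast markers. The other 5 libraries had 114 to 123 and 148 to 254. The number of negative members, the medians of members and of complexes I to V, and several named members are also given without wild-type replicate 2.

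Subunit mRNAs were among the abundant transcripts of these kidneys. Their FPKM summed to 23471, 24310 and 23772 in the *Ptpn6*+/mev kidneys (replicates in order, here and in all lists of values), against 25198, 25734 and 23228 in the wild-type kidneys. They took 2.26%, 2.32% and 2.22% of all counts, against 2.39%, 2.44% and 2.25%. The groups overlapped, because wild-type replicate 3 had the lowest summed FPKM of the 6 libraries. Of the 94 genes, 71 had a mean FPKM above 100, 14 lay between 10 and 100, and 9 lay below 10. The highest levels belonged to *Atp5b* (mean FPKM 1656), *Cox6a1* (1132), *Cox8a* (1043) and *Cox4i1* (959). After the filter on low counts 89 members were tested, and the 5 that did not pass, *Cox4i2*, *Cox6a2*, *Cox7b2*, *Cox8b* and *Cox8c*, are complex IV isoforms.

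**Figure D1:**
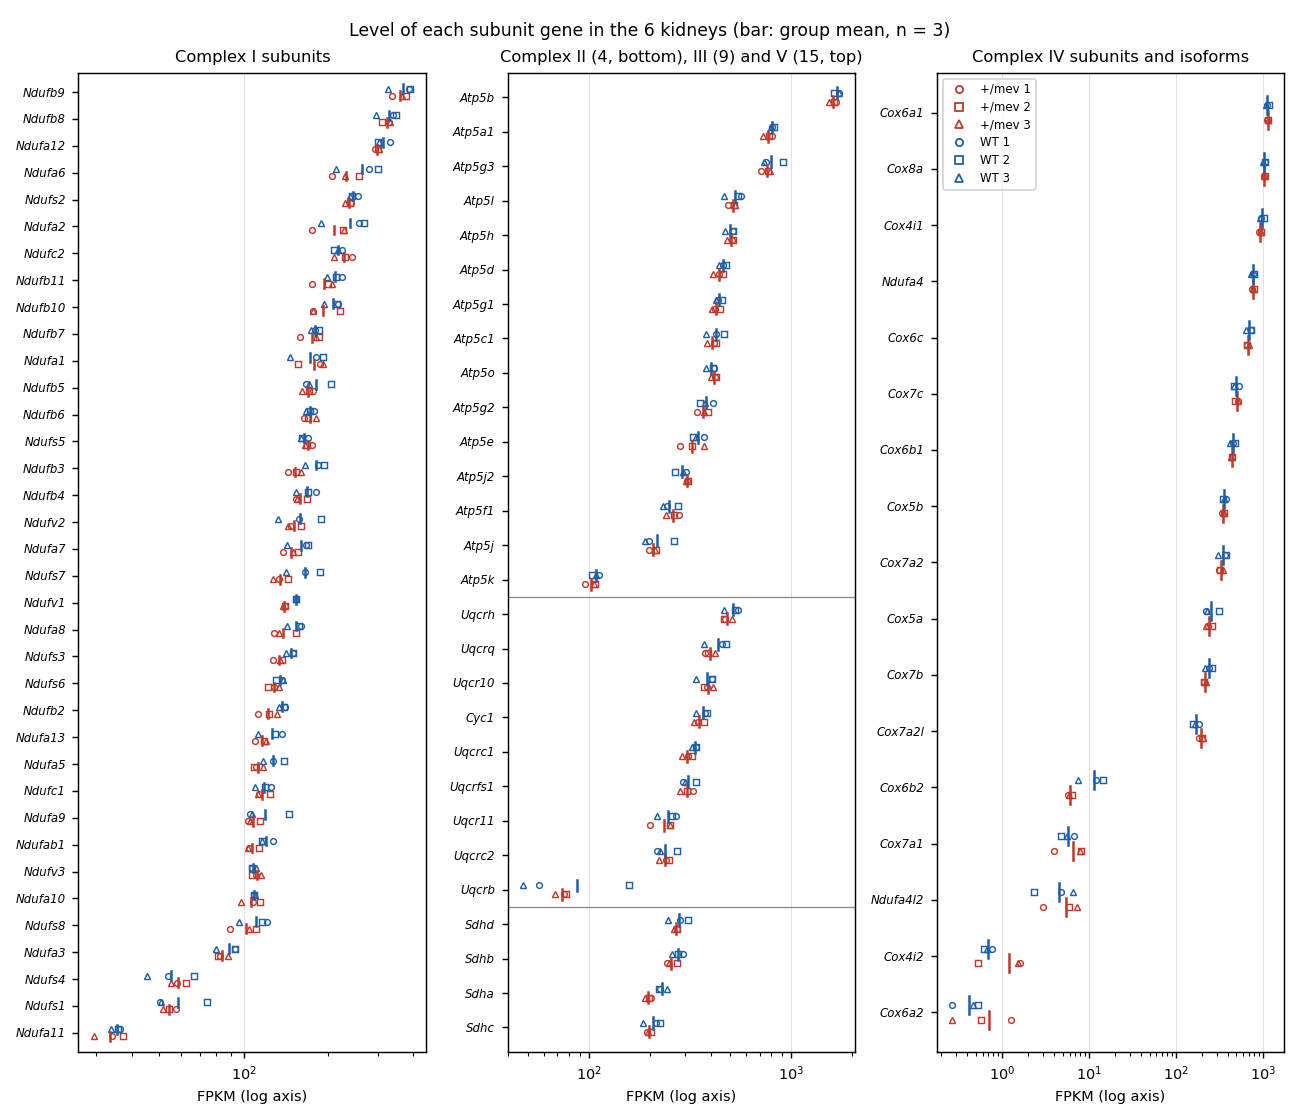
FPKM (log axis) of complex I, II, III, IV and V subunits in each of the 6 kidneys, with red symbols for *Ptpn6*+/mev replicates 1 to 3, blue symbols for wild-type replicates 1 to 3 and bars for group means (n = 3). Symbols of both groups lie close together for nearly every gene, and the low isoforms of complex IV and the spread of *Uqcrb* among wild-type kidneys stand out.

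No member passed an FDR of 0.05 in edgeR's quasi-likelihood test of *Ptpn6*+/mev against wild-type kidneys, in which 0.138% of the 13036 genes tested were called and 0.069% were called lower. The lowest FDR among members was 0.249. DESeq2 and edgeR's exact test also called 0 members. At an unadjusted p under 0.05 there were 9 members (10.1%), while 12.2% of all genes tested reached this level, so the share was near that of all genes. All 9 had lower values in *Ptpn6*+/mev kidneys, and 6.71% of all genes did so. These were *Sdha*, *Cox6b2*, *Ndufb3*, *Ndufv1*, *Ndufs7*, *Ndufab1*, *Ndufb2*, *Ndufaf3* and *Ndufs3*, of which 6 are complex I subunits. The count of 9 depended on single libraries. It was 2 without *Ptpn6*+/mev replicate 1 and 2 without *Ptpn6*+/mev replicate 3. It was 4 without wild-type replicate 1, 7 without wild-type replicate 2 and 26 without wild-type replicate 3.

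The direction of the differences was more uniform than their size. The log2 fold change was negative in 82 of the 89 members (92.1%), against 50.5% of all genes tested, and its median was -0.14 in the members and -0.002 in all genes. The 7 members with a positive value were *Ndufs4*, *Ndufaf1*, *Ndufaf2*, *Cox7a1*, *Cox7a2l*, *Ndufa4l2* and *Atp5j2*, with values from 0.01 to 0.18. Subunit genes of 1 kidney share its RNA and its cell composition and are not independent measurements. On the log2(FPKM + 1) scale, tested with limma, 68 of 89 were negative and the median was -0.06, while the median of all genes was 0.06. Fewer cells of a type and less RNA per cell cannot be told apart in whole-kidney RNA.

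The standard error of a member's log2 fold change ranged from 0.07 to 0.44, with a median of 0.11, against 0.15 in all genes. The median FPKM was 203 in members and 10.4 in all genes, so the shares of intervals below compare genes of unlike level and precision. For 77 of the 89 members (86.5%) the 95% interval lay within 1.5-fold in both directions, against 56.2% of all genes, so larger differences lay outside the interval for these members. For the other 12 it did not, among them *Uqcrb*, *Cox6b2*, *Cox7a1*, *Ndufa4l2* and *Ndufs7*. A fitted difference past 1.5-fold was found for *Cox6b2* alone. In FPKM, every *Ptpn6*+/mev kidney lay below every wild-type kidney for 8 members (8.99%), against 6.38% of all genes, and every one lay above for 0 members, against 14%. On counts scaled to library size with TMM factors (normalised CPM), the numbers were 16 (18.0%, against 9.8%) and 0 (against 9.64%).

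**Figure D2:**
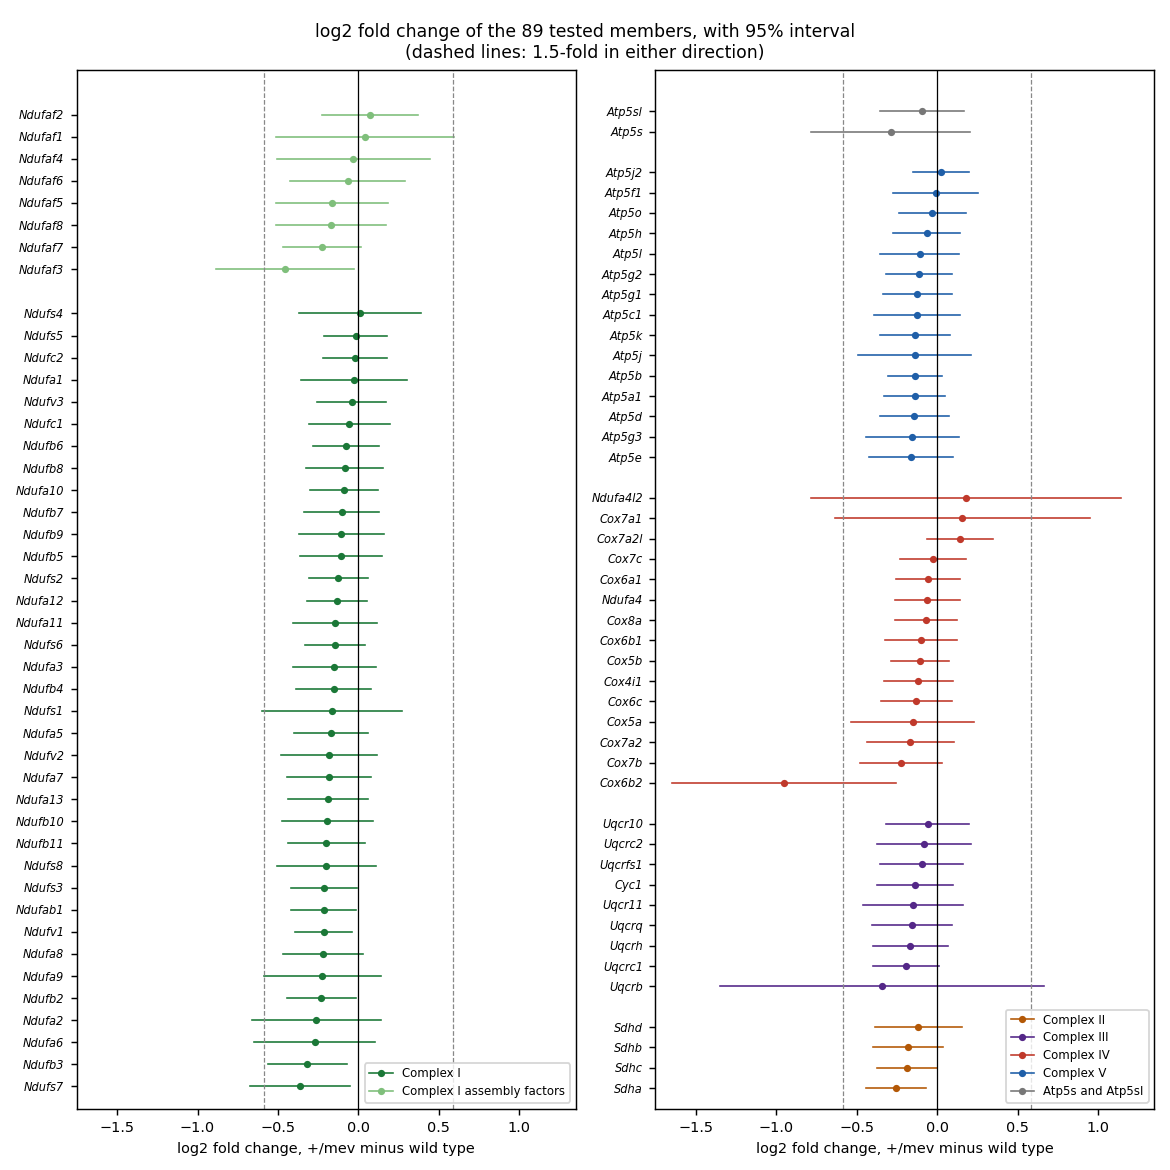
log2 fold change (*Ptpn6*+/mev minus wild type, edgeR, n = 3 per group) of the 89 tested members with 95% intervals, coloured by complex, with dashed lines at 1.5-fold in either direction. Most points lie left of 0 and most intervals lie between the dashed lines, and the point of *Cox6b2* alone lies beyond one.

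Complex I, the NADH dehydrogenase, had 35 of its 36 subunits with a negative log2 fold change and a median of -0.16 (range -0.36 to 0.01). Its mRNA levels ran from a mean FPKM of 34.5 to 364. Among the 7 core subunits, which carry the flavin and the iron-sulfur clusters, all 7 values were negative with a median of -0.20. Among the 29 accessory subunits 28 were negative, with a median of -0.15. The 13 *Ndufa* and 10 *Ndufb* genes in this set were all negative, with medians of -0.18 and -0.13. At an unadjusted p under 0.05 there were 3 core subunits (42.9%) and 3 accessory subunits (10.3%), against 12.2% of all genes tested. No test compared these groups of subunits with each other.

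*Ndufs7* (chr10:80249121-80256794), a core subunit close to the quinone site, had FPKM values of 134, 144 and 128 in *Ptpn6*+/mev kidneys and 165, 187 and 142 in wild-type kidneys. *Ptpn6*+/mev replicate 2 lay above wild-type replicate 3, so the groups overlapped. Its log2 fold change of -0.36 (SE 0.14, 95% interval -0.67 to -0.05, FDR = 0.33) was the lowest of complex I. Without wild-type replicate 2 it was -0.23. Its promoter held the YY1 letters shown above.

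*Ndufv1* (chr19:4007384-4012806), the flavin subunit that oxidises NADH, had the closest replicates in FPKM. Its FPKM was 140, 140 and 138 in *Ptpn6*+/mev kidneys and 154, 153 and 154 in wild-type kidneys, with means of 140 ± 1.23 and 153 ± 0.337 (SD, n = 3). The groups were apart by far more than their spread in FPKM. On normalised CPM they were also apart, with 222, 224 and 220 against 253, 269 and 250, where the wild-type kidneys were less close. In the model of counts, whose estimate of spread is shared across genes, the log2 fold change was -0.22 (SE 0.08) with an FDR of 0.311. *Ndufs3* (chr2:90894634-90904827), another core subunit, had 128, 137 and 135 against 149, 150 and 141, also without overlap, and a log2 fold change of -0.22 (FDR = 0.373).

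Among the accessory subunits, *Ndufb3* (chr1:58586384-58595964), part of the membrane arm, had FPKM values of 143, 153 and 160 in *Ptpn6*+/mev kidneys and 183, 193 and 165 in wild-type kidneys. The groups were separated, though narrowly, by wild-type replicate 3. Means were 152 ± 8.41 and 180 ± 13.9, and the log2 fold change was -0.32 (SE 0.11, FDR = 0.283). *Ndufb2* (chr6:39592574-39603382), in the same arm, had 113, 123 and 131 against 140, 139 and 133, with a log2 fold change of -0.23 (FDR = 0.366). *Ndufab1* (chr7:122085403-122101886), the mitochondrial acyl carrier protein, which also serves fatty acid synthesis in mitochondria, had 105, 113 and 103 against 127, 116 and 116. Its groups were apart by less than 3 FPKM at their nearest, and its log2 fold change was -0.22 (FDR = 0.366).

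The most abundant complex I mRNAs were accessory subunits. *Ndufb9*, *Ndufb8* and *Ndufa12*, with mean FPKM values of 364, 325 and 305, had log2 fold changes of -0.11, -0.09 and -0.13 (FDR = 0.78, 0.815 and 0.588). Without wild-type replicate 2 these were -0.03, -0.0088 and -0.13, and without wild-type replicate 3 they were -0.21, -0.17 and -0.17. The FPKM of *Ndufb9* was 337, 379 and 365 against 388, 391 and 326, that of *Ndufb8* 327, 311 and 332 against 339, 347 and 296, and that of *Ndufa12* 294, 299 and 303 against 332, 301 and 303. All 3 genes overlapped between groups in FPKM, and *Ndufa12* did not on normalised CPM, where every *Ptpn6*+/mev kidney was lower. *Ndufs4*, an accessory subunit needed for a stable complex I, was the 1 subunit with a positive value. It had 58.1, 62.7 and 55.2 in *Ptpn6*+/mev kidneys and 53.7, 66.5 and 45.3 in wild-type kidneys, the last including both the highest and the lowest library. Its log2 fold change was 0.01 (FDR = 0.99), and its sign turned when *Ptpn6*+/mev replicate 2, wild-type replicate 1 or wild-type replicate 3 was left out. Without wild-type replicate 2 the value was 0.20.

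Complex I assembly factors help to build the enzyme and are not part of it. Of 8, 6 were negative, with a median of -0.12 (range -0.46 to 0.07), and their mean FPKM ran from 7.86 to 51.3. *Ndufaf3* (chr9:108565537-108567434), which acts early in assembly, had 14.7, 18.0 and 14.3 in *Ptpn6*+/mev kidneys and 22.7, 23.1 and 17.3 in wild-type kidneys. *Ptpn6*+/mev replicate 2 lay above wild-type replicate 3, so the groups overlapped, and the log2 fold change was -0.46 (SE 0.19, FDR = 0.369). *Ndufaf1* and *Ndufaf2* had 0.04 and 0.07 (FDR = 0.973 and 0.893). The FPKM of *Ndufaf1* was 13.5, 11.5 and 11.0 against 8.30, 15.4 and 10.05. Wild-type replicate 2 was thus its highest library, and the other wild-type kidneys lay below every *Ptpn6*+/mev kidney.

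Complex II, succinate dehydrogenase, is also an enzyme of the citric acid cycle, and all 4 of its subunits are encoded in the nucleus. All 4 log2 fold changes were negative, with a median of -0.18 (range -0.26 to -0.12). *Sdha* (chr13:74322254-74350280), the flavin subunit that oxidises succinate, had FPKM values of 203, 199 and 190 in *Ptpn6*+/mev kidneys and 224, 222 and 243 in wild-type kidneys. The groups did not overlap, with means of 197 ± 6.55 and 230 ± 11.4. Its log2 fold change was -0.26 (SE 0.08, 95% interval -0.44 to -0.07), with the lowest p among the members (unadjusted p = 0.0133, FDR = 0.249). With any single kidney left out it stayed between -0.29 and -0.22. The promoter of *Sdha* held the NRF1 letters at 3 places.

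The other complex II subunits overlapped in FPKM. *Sdhb*, the iron-sulfur subunit, had 243, 272 and 251 against 293, 276 and 257, with a log2 fold change of -0.18 (FDR = 0.508). *Sdhc*, a membrane anchor, had 193, 202 and 197 against 216, 224 and 186, with a log2 fold change of -0.19 (FDR = 0.411). For *Sdhc* the FPKM groups overlapped and the CPM groups did not. The transcript length implied by its count and FPKM varied 1.18-fold between libraries, where the median member varied 1.01-fold. *Sdhd*, the other anchor, had 273, 274 and 264 against 281, 309 and 245, where wild-type kidneys included both the highest and the lowest, and a log2 fold change of -0.12 (FDR = 0.761). Without wild-type replicate 2 the value of *Sdhd* was -0.0031.

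**Figure D3:**
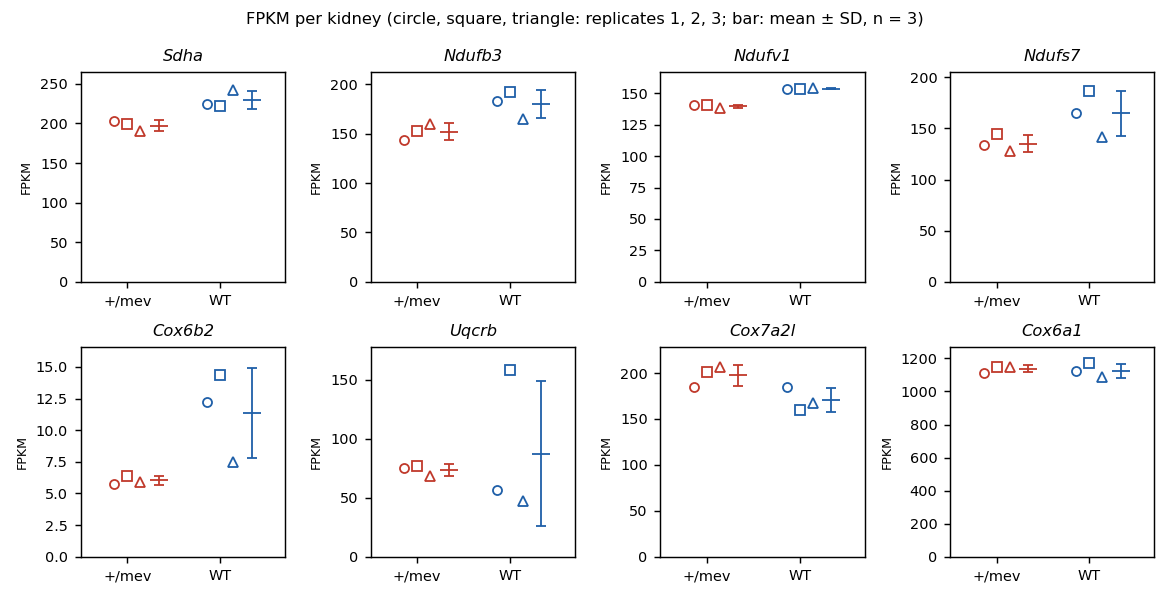
FPKM of 8 members in each kidney (circle, square and triangle for replicates 1, 2 and 3; *Ptpn6*+/mev in red, wild type in blue; bars show mean ± SD, n = 3; axes start at 0). *Sdha*, *Ndufb3*, *Ndufv1* and *Cox6b2* show groups without overlap, *Uqcrb* shows wild-type replicate 2 at 158 against 47.5 and 56.5 in the other wild-type kidneys, and *Cox6a1* shows groups that overlap.

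Complex III, the cytochrome bc1 complex, takes electrons from ubiquinol to cytochrome c. All 9 nuclear genes had a negative log2 fold change (median -0.15, range -0.34 to -0.06) and 0 reached an unadjusted p under 0.05. The most abundant were the small subunits *Uqcrh*, *Uqcrq* and *Uqcr10*, with mean FPKM values of 498, 415 and 387. *Uqcrh* had 471, 465 and 508 against 550, 528 and 466 (log2 fold change -0.17, FDR = 0.574, or -0.25 without wild-type replicate 3). *Uqcrq* had 376, 390 and 422 against 456, 479 and 370 (-0.16, FDR = 0.636). In both genes wild-type replicate 3 lay with the *Ptpn6*+/mev kidneys. *Uqcrq* stood at -0.07 without wild-type replicate 2 and at -0.25 without wild-type replicate 3. *Uqcr10* had 385, 371 and 410 against 408, 407 and 339 (-0.06, FDR = 0.894), and this sign turned in the FPKM fit and without wild-type replicate 2.

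*Uqcrc1* (chr9:108936633-108949623), a core protein of the complex, was the 1 complex III gene without overlap in FPKM, and was singled out after its values were seen. It had 308, 325 and 290 in *Ptpn6*+/mev kidneys and 339, 340 and 325 in wild-type kidneys. The highest *Ptpn6*+/mev kidney and the lowest wild-type kidney were nearly level, and the log2 fold change was -0.19 (SE 0.09, FDR = 0.434). *Cyc1*, the cytochrome c1 subunit, and *Uqcrfs1*, the Rieske iron-sulfur protein, had log2 fold changes of -0.14 and -0.10 (FDR = 0.657 and 0.807). The normalised CPM of *Uqcrfs1* was 437, 409 and 375 against 402, 499 and 405. Wild-type replicate 2 was its highest library, and the other wild-type kidneys lay within the *Ptpn6*+/mev values.

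*Uqcrb* (chr13:66900617-66905378), which binds ubiquinone in the complex, had the largest standard error of the tested members. Its FPKM was 75.4, 77.1 and 68.0 in *Ptpn6*+/mev kidneys and 56.5, 158 and 47.5 in wild-type kidneys. Wild-type replicate 2 lay above every other kidney, and the other wild-type kidneys lay below every *Ptpn6*+/mev kidney. The log2 fold change was -0.34 (SE 0.44, 95% interval -1.35 to 0.66, FDR = 0.824), and without wild-type replicate 2 it was 0.46 (FDR = 0.0937). The direction of *Uqcrb* therefore rested on 1 library.

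Complex IV, cytochrome c oxidase, held the genes with tissue-specific isoforms. Of its 15 tested genes 12 had a negative log2 fold change, with a median of -0.10 (range -0.95 to 0.18). The abundant subunits were nearly level between groups. *Cox6a1* (chr5:115345642-115348981) had FPKM values of 1114, 1151 and 1150 in *Ptpn6*+/mev kidneys and 1122, 1171 and 1085 in wild-type kidneys (log2 fold change -0.06, 95% interval -0.26 to 0.14, FDR = 0.86). *Cox8a* had 1041, 1063 and 1026 against 1062, 1066 and 997 (-0.07, FDR = 0.816). *Cox4i1* had 907, 963 and 962 against 968, 1030 and 922 (-0.12, FDR = 0.687). For *Cox6a1* and *Cox8a* the sign turned positive in the FPKM fit. Without wild-type replicate 2 the log2 fold changes of *Cox6a1*, *Cox8a* and *Cox4i1* were 0.0040, -0.02 and -0.04.

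The isoforms typical of muscle, lung or testis were low or at 0. *Cox4i2*, known from lung and from hypoxia, had 1.60, 0.53 and 1.53 FPKM in *Ptpn6*+/mev kidneys and 0.76, 0.62 and 0.67 in wild-type kidneys, below the count filter. *Cox6a2*, the muscle form, had 1.28, 0.57 and 0.27 against 0.27, 0.53 and 0.47, also below it. *Cox7b2*, *Cox8b* and *Cox8c* had a count of 0 in all 6 libraries, which allows up to 3 counts per library, or 0.243 to 0.292 CPM. These values say nothing of a difference between the groups. *Cox7a1*, the muscle and brown fat form, had 3.95, 8.05 and 7.98 against 6.82, 4.85 and 5.54, with a log2 fold change of 0.16 (FDR = 0.912) that turned negative without *Ptpn6*+/mev replicate 2. *Cox7a2*, the form found in most tissues, had 317, 324 and 351 against 370, 378 and 308 (-0.17, FDR = 0.641), or -0.08 without wild-type replicate 2. *Cox7a1* was thus a minor transcript beside *Cox7a2*.

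*Cox6b2* (chr7:4751792-4753094), a form best known from testis, had the largest fitted difference of the members. Its FPKM was 5.77, 6.42 and 5.90 in *Ptpn6*+/mev kidneys, from 31, 36 and 33 counts, and 12.2, 14.4 and 7.45 in wild-type kidneys, from 68, 81 and 48 counts. The groups did not overlap, but wild-type replicate 3 lay nearer to the *Ptpn6*+/mev kidneys than to the other wild-type kidneys. Means were 6.03 ± 0.344 and 11.3 ± 3.55, and the log2 fold change was -0.95 (SE 0.30, 95% interval -1.65 to -0.26, unadjusted p = 0.0135, FDR = 0.25). Leaving out any single kidney gave values from -1.20 to -0.71, and without wild-type replicate 3 its FDR was 0.108. *Cox6b1*, the form of most tissues, had 446, 449 and 434 against 458, 475 and 420 (-0.10, FDR = 0.745, and -0.03 without wild-type replicate 2), so *Cox6b2* made a small part of the family's mRNA.

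Other complex IV genes had values of either sign. *Cox7a2l*, also called *Scaf1* for its part in joining complexes III and IV, had 184, 201 and 206 in *Ptpn6*+/mev kidneys and 185, 160 and 167 in wild-type kidneys. The groups met at the lowest *Ptpn6*+/mev and the highest wild-type kidney, and the log2 fold change was 0.14 (SE 0.09, 95% interval -0.06 to 0.35, FDR = 0.589). *Cox7b* had 212, 211 and 225 against 242, 262 and 216 (-0.22, FDR = 0.469), or -0.12 without wild-type replicate 2. *Ndufa4* had 764, 791 and 772 against 783, 793 and 733 (-0.06, FDR = 0.848), with -0.0061 without wild-type replicate 2, and its sign turned in the FPKM fit. Its relative *Ndufa4l2*, a target of the hypoxia response, had 3.01, 5.97 and 7.24 against 4.85, 2.33 and 6.56, with a log2 fold change of 0.18 (FDR = 0.916) and no constant direction when single libraries were left out.

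Complex V, the ATP synthase, makes ATP from the return of protons. Of its 15 genes 14 had a negative log2 fold change, with a median of -0.13 and a range of -0.16 to 0.02, and 0 reached an unadjusted p under 0.05. All 15 intervals lay within 1.5-fold in both directions. *Atp5b* (chr10:128083273-128090391), the catalytic beta subunit, had FPKM values of 1669, 1639 and 1540 in *Ptpn6*+/mev kidneys and 1728, 1626 and 1737 in wild-type kidneys, with means of 1616 ± 67.7 and 1697 ± 61.4. Wild-type replicate 2 lay inside the *Ptpn6*+/mev values in FPKM, and the log2 fold change was -0.14 (SE 0.07, FDR = 0.497). *Atp5a1*, the alpha subunit, had 806, 775 and 730 against 807, 821 and 795 (-0.14, FDR = 0.567). On normalised CPM, *Atp5b* and *Atp5a1* did not overlap, with every *Ptpn6*+/mev kidney lower. Alpha and beta form the head of the enzyme, and their fitted differences were equal as rounded.

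The c-ring of the ATP synthase, the rotor through which protons pass, is built from 1 protein encoded by *Atp5g1*, *Atp5g2* and *Atp5g3*. Their summed FPKM was 1471, 1610 and 1571 in *Ptpn6*+/mev kidneys and 1598, 1725 and 1535 in wild-type kidneys, which overlap. *Atp5g3* made 48.2%, 48.0% and 50.4% of it in *Ptpn6*+/mev kidneys and 47.0%, 53.0% and 48.0% in wild-type kidneys, so the share of *Atp5g3* was highest in wild-type replicate 2 and both groups overlapped. *Atp5g3* had 709, 774 and 791 against 751, 914 and 737, *Atp5g1* had 420, 447 and 408 against 436, 457 and 424, and *Atp5g2* had 342, 390 and 372 against 411, 354 and 374. The log2 fold changes of *Atp5g1*, *Atp5g2* and *Atp5g3* were -0.12, -0.11 and -0.16 (FDR = 0.662, 0.685 and 0.69), and without wild-type replicate 2 they were -0.06, -0.13 and -0.01. *Atp5g2* stood at -0.06 without *Ptpn6*+/mev replicate 1 and at -0.07 without wild-type replicate 1. *Atp5e*, the epsilon subunit, had the lowest log2 fold change of the complex (-0.16, FDR = 0.641, or -0.07 without *Ptpn6*+/mev replicate 1 and -0.26 without *Ptpn6*+/mev replicate 3), with 283, 323 and 371 against 372, 329 and 339 FPKM. *Atp5j2*, a membrane subunit, had the highest (0.02, FDR = 0.936), with 307, 310 and 302 against 302, 268 and 293. Both genes overlapped between groups.

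Wild-type replicate 2 had the highest median of the 6 libraries in every complex, while the place of wild-type replicate 3 varied by complex. As the median deviation from the mean of the 6 libraries, on log2 normalised CPM, the 89 members lay at -0.09, -0.01 and -0.08 in the *Ptpn6*+/mev kidneys and at 0.08, 0.20 and -0.08 in the wild-type kidneys. Over all members, wild-type replicate 3 was therefore at the level of the lower *Ptpn6*+/mev kidneys, and wild-type replicate 2 was above all others. In complex II, wild-type replicate 3 (-0.03) lay above every *Ptpn6*+/mev kidney (-0.10, -0.05 and -0.11). In complex V it (-0.03) lay above *Ptpn6*+/mev replicates 1 and 3 (-0.07 in both). Wild-type replicate 2 was the highest library for 74 of 89 members (83.1%), against 29.5% of all genes tested. The lowest library was *Ptpn6*+/mev replicate 1 in 27 members, *Ptpn6*+/mev replicate 3 in 27 and wild-type replicate 3 in 23. Within a group the median coefficient of variation of FPKM was 5.53% in *Ptpn6*+/mev and 8.30% in wild-type kidneys, and it was 10.4% and 14.7% over all genes.

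Without wild-type replicate 2 the median log2 fold change of members was -0.07 and 67 of 90 members tested had a negative value. By complex it was then -0.11 for complex I, -0.15 for complex II, -0.07 for complex III, -0.03 for complex IV and -0.05 for complex V. Without wild-type replicate 3 the median of members was -0.20 and 84 of 90 were negative, and complexes I, II and III each stood at -0.24. The assembly factors stood at -0.05 without *Ptpn6*+/mev replicate 3. The median of members stayed negative without either wild-type kidney, while that of all genes was -0.004 without replicate 2 and 0.002 without replicate 3. Its size and the number of negative members depended on which wild-type kidney was left out. Without wild-type replicate 2 the wild-type kidneys left were replicate 1 (median deviation of members 0.08) and replicate 3 (-0.08), on either side of 0. Relative to the mean of wild-type replicates 1 and 3, wild-type replicate 2 was higher by a median of 0.18 on the log2 scale in members, and by most in *Uqcrb* (1.72), *Ndufaf1* (0.80), *Ndufs1* (0.71) and *Cox6b2* (0.68).

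**Figure D4:**
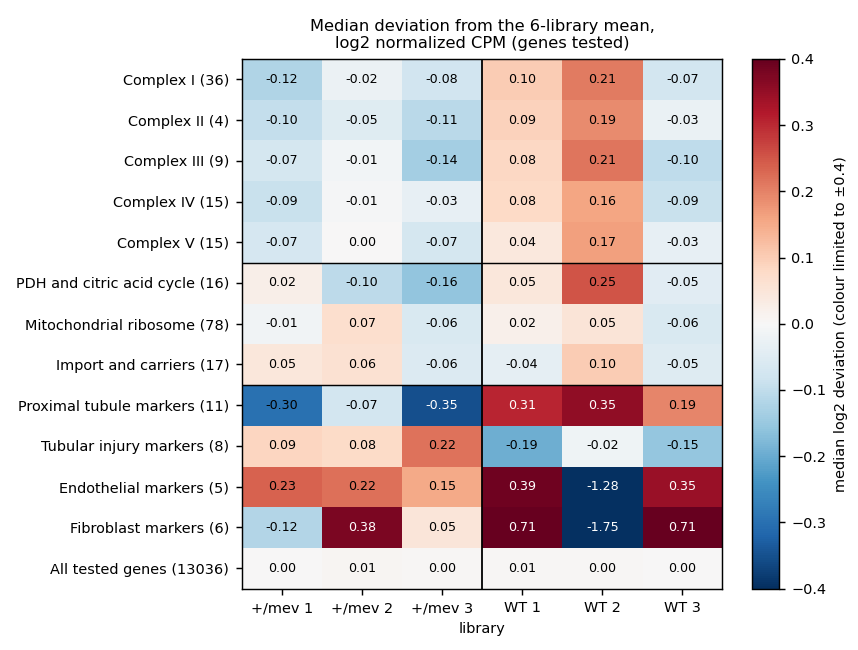
Median deviation of each gene list from the mean of the 6 libraries (log2 normalised CPM, colour limited to 0.4 in either direction, value printed in each cell), with libraries in columns and the number of genes tested in brackets. Complexes I to V are highest in wild-type replicate 2 and below 0 in wild-type replicate 3, while proximal tubule markers are above 0 in all 3 wild-type kidneys and below 0 in all 3 *Ptpn6*+/mev kidneys.

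Summed levels of proximal tubule and tubular injury markers lay apart between the groups, while those of the other marker lists overlapped. Several of the other lists were highest or lowest in wild-type replicate 2. Of 11 proximal tubule markers 10 had a negative log2 fold change, with a median of -0.44, and their summed FPKM was 1146 to 1243 in *Ptpn6*+/mev kidneys and 1505 to 1677 in wild-type kidneys. *Slc22a8*, an organic anion transporter of this segment, was the 1 marker called by the main test (DESeq2 and the exact test each called 5 markers of this list, and DESeq2 also called *Krt18* of the injury list), with 14.5, 11.9 and 13.2 FPKM against 21.3, 24.9 and 24.7 (log2 fold change -0.91, FDR = 0.0443). Of 8 tubular injury markers 6 had a positive value, with a median of 0.21, and their summed FPKM was 6194 to 7584 against 5659 to 6122. The 5 endothelial markers had a median of 0.21 and a summed FPKM of 114 to 119 against 48.0 to 123. The lowest value is wild-type replicate 2, and the other wild-type kidneys had 118 and 123. Median deviations of this list were 0.23, 0.22 and 0.15 in *Ptpn6*+/mev kidneys and 0.39, -1.28 and 0.35 in wild-type kidneys. The positive median therefore rested on wild-type replicate 2. The 6 macrophage markers had a median of 0.20 and a summed FPKM of 158 to 261 against 105 to 229, again lowest in wild-type replicate 2. Their median deviations were -0.06, 0.31 and 0.26 against 0.26, -0.73 and 0.08. All 6 fibroblast markers had a negative value, with a median of -0.10 and a summed FPKM of 148 to 233 against 52.6 to 254. The value of 52.6 is wild-type replicate 2, and the other wild-type kidneys had 251 and 254. Median deviations of the fibroblast list were -0.12, 0.38 and 0.05 in *Ptpn6*+/mev kidneys and 0.71 in both wild-type replicates 1 and 3. Wild-type replicate 2 had the lowest median deviation of the 6 libraries, so the size of the fibroblast median depended on it. The 4 neutrophil markers tested had a median of 0.15, and the 5 listed had a summed FPKM of 24.2 to 56.7 against 26.2 to 44.1. The 6 collecting duct markers summed to 567 in wild-type replicate 2 and to 215 to 324 in the other kidneys. Of 6 thick ascending limb and distal tubule markers tested 4 had a negative value, with a median of -0.13 and a summed FPKM of 1840 to 2711 against 2333 to 2440, and their median deviations were 0.02, -0.11 and 0.10 in *Ptpn6*+/mev kidneys and -0.20, 0.58 and -0.46 in wild-type kidneys, highest in wild-type replicate 2 and lowest in wild-type replicate 3. Their part in the values of the subunits was not tested. The defining genes of brown fat and of muscle, tissues with high levels of subunits, were at or near 0 (*Ucp1* at most 0.10 FPKM, *Ckm* at most 0.07).

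Other genes of the pathway were read from lists, and edgeR's quasi-likelihood test called 0 of their genes. DESeq2 and the exact test each called 1, *Coq8a*, a coenzyme Q synthesis gene with a log2 fold change of -0.83 (FDR = 0.0685 in the main test). All 16 genes of pyruvate dehydrogenase and the citric acid cycle, which feed electrons to the chain, had a negative log2 fold change (median -0.17). Of these, 4 (25%) had an unadjusted p under 0.05, against 12.2% of all genes tested. Wild-type replicate 2 was the highest library for 13 of the 16. Median deviations of this list were 0.02, -0.10 and -0.16 in *Ptpn6*+/mev kidneys and 0.05, 0.25 and -0.05 in wild-type kidneys. *Mdh2*, malate dehydrogenase and the most abundant of this list, had -0.04 (FDR = 0.913). Among 15 electron carrier and coenzyme Q genes tested 12 were negative (median -0.19), with 4 (26.7%) at an unadjusted p under 0.05. *Etfb* and *Etfa*, which carry electrons from fatty acid oxidation, had -0.37 and -0.23 (FDR = 0.313 and 0.715). Among 40 assembly factors outside the *Ndufaf* genes 33 were negative, with a median of -0.11 and 5 at an unadjusted p under 0.05, and the most abundant, *Atpif1* and *Coa3*, had -0.02 and -0.01.

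Other mitochondrial genes were nearer to 0. The 78 mitochondrial ribosomal protein genes had 45 negative values and a median of -0.03. At an unadjusted p under 0.05, 3 were lower and 2 higher (6.41% together). The most abundant, *Mrpl52* and *Mrpl33*, had -0.07 and 0.21 (FDR = 0.825 and 0.338). The 17 genes of import, carriers and chaperones had 8 negative values and a median of 0.03, with 0 at an unadjusted p under 0.05, and *Slc25a5*, an ADP/ATP carrier, at -0.14 (FDR = 0.5) and *Slc25a3*, the phosphate carrier, at 0.07 (FDR = 0.848). The 14 regulators of mitochondrial biogenesis had 8 negative values and a median of -0.05, with 1 (7.14%) lower at an unadjusted p under 0.05. *Nrf1* had 0.01 (FDR = 0.98). *Ppargc1a*, a transcriptional coactivator of subunit genes, had 7.33, 6.76 and 6.25 FPKM against 6.56, 5.81 and 5.65 (-0.08, FDR = 0.902), and *Esrra*, which encodes an estrogen-related receptor, had 59.7, 56.2 and 52.1 against 58.2, 52.9 and 53.3 (-0.05, FDR = 0.887). Both overlapped between groups, and for both the mean FPKM was higher in *Ptpn6*+/mev kidneys while the log2 fold change from counts was negative. No test compared these lists with the subunits.

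The symbols kept apart from the enzyme were *Atp5s* and *Atp5sl*. *Atp5s* had 9.13, 13.4 and 11.6 FPKM in *Ptpn6*+/mev kidneys and 18.4, 12.9 and 12.3 in wild-type kidneys (-0.29, FDR = 0.657), and its implied transcript length varied 1.48-fold between libraries, so its FPKM and its counts do not give the same pattern. *Atp5sl* had -0.09 (FDR = 0.815). Fractional counts, which can arise where reads are shared between similar genes, occurred in *Ndufa13*, *Ndufb6*, *Uqcrc2* and *Atp5h*, and the values of these 4 members are uncertain to that extent.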

How the data were processed

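Kidney mRNA of 3 *Ptpn6*+/mev and 3 wild-type mice with IRI was analysed, and sample names in the labels gave group and replicate number. The table's columns are headed HE and WT, and HE was read as heterozygous *Ptpn6*+/mev, with the column's number matched to that of the sample name. The p-values measure the spread between these mice. The authors aligned reads to GRCm38.p5 (Ensembl release 90) with TopHat2 (version 2.0.3.12 in the submitters' processing notes) and deposited FPKM values from Cufflinks. The authors deposited estimated counts in the same table, and the notes also list Bowtie2 and RSEM without a role, so which tool made the counts is not given in the sources used here. No per-sample column was left unmapped.

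Estimated counts were rounded and tested with edgeR 4.0.16 in R 4.3.3 (filterByExpr by group, TMM, quasi-likelihood F-test, Benjamini-Hochberg adjustment over 13036 genes, called at an FDR under 0.05). Log2 fold changes are *Ptpn6*+/mev minus wild type, with 95% intervals. FPKM values gave the levels, which are per length. Total counts of 10271590 to 12361745 limit precision mainly for genes of few counts, and floors of 3 counts cover counting error only. Replicates differed by more than sampling noise. Alternatives were DESeq2 1.42.0, edgeR's exact test, RLE and upper quartile scaling, no filter, limma 3.58.1 on log2(FPKM + 1) or log2(FPKM + 0.1), a block for the replicate number, and leaving out each library. On simulated data with 200 changed genes among 13036 for the same comparison, the main test recovered 67% of genes changed 2-fold and 91% of those changed 4-fold, with 5.39% false calls. No smaller change was simulated, so these rates say nothing of differences under 2-fold, where the fitted value of every tested member lay. Tables and figures used Python 3.11.15, pandas 2.3.3, numpy 2.4.6 and matplotlib 3.10.9.

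Members named by rule were the 3 most abundant of each complex, the lowest and highest log2 fold change of each complex, the 10 lowest p-values, complex II and the isoform families. From each other list they were the 2 most abundant genes and any called gene, with *Ppargc1a* and *Esrra*. Values of 1 gene that this rule would name are not reported here. For marker lists summed levels are given in their place. Other names, the genes of the promoter set included, were chosen after their values were seen. The members and lists were chosen with earlier results of these data known. Positions of genes come from GENCODE M21 (GRCm38), promoters from RefSeq (GRCm38.p6).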

Additional observations from a re-analysis of the deposited data

How the results depend on the processing

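No member was called in any of the 14 alternatives, and the median of members and of every complex was negative in each. Over the fits that leave out 1 library the number of negative members ranged from 67 to 84 and the median from -0.20 to -0.07. By complex it ranged from -0.24 to -0.11 (I), -0.16 to -0.05 (assembly factors), -0.24 to -0.15 (II), -0.24 to -0.07 (III), -0.13 to -0.03 (IV) and -0.17 to -0.05 (V). With limma on log2(FPKM + 1) and log2(FPKM + 0.1) the median was -0.092 in both for complex II and -0.048 in both for complex V, and it was -0.080 and -0.081 for complex I, -0.064 in both for complex III, -0.024 in both for complex IV and -0.039 and -0.040 for the assembly factors. In the same fits the median of all genes was 0.062 and 0.076, against -0.002 in the main fit. Of the 37 tested members that the naming rule covers, 29 kept their sign throughout. In the FPKM fits it turned for *Cox6a1* (0.016 in both), *Cox8a* (0.0030), *Ndufa4* (0.012) and *Uqcr10* (0.018). With single libraries left out it turned in *Cox6a1* (-0.11 to 0.0040), *Cox7a1* (-0.0055 to 0.42), *Ndufa4l2* (-0.12 to 0.51), *Ndufs4* (-0.13 to 0.20), *Uqcr10* (-0.16 to 0.016) and *Uqcrb* (-0.66 to 0.46). The cause was not tested. The 18 genes called of all genes became 388 with DESeq2, 390 with the exact test and 237 without wild-type replicate 2, with 0 members among them in each case.

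The replicate number as a block gave a median of -0.13 over members, 5 members at an unadjusted p under 0.05 and 1 gene called in place of 18. Same-numbered kidneys had correlations of -0.14, -0.18 and -0.13 in their deviations from the group means, no library correlated best with its own number, and the numbers were not taken as pairs. Depth limits the complex IV isoforms with few or 0 counts, among them *Cox4i2*, *Cox6a2*, *Cox7a1* and *Cox6b2*.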
